A study of Mus musculus with 4 samples.

Results

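Natural killer (NK) cells were taken from single-cell RNA sequencing of mouse pancreas and pancreatic tumours, and 875 of 44162 cell barcodes met the rule for them. The members were chosen by their own transcript counts, as unique molecular identifiers (UMIs), each of which stands for 1 captured transcript. A barcode needed at least 500 UMIs, 250 genes and no more than 20% mitochondrial UMIs. It was selected on at least 2 UMIs summed over the NK genes Ncr1, Klrb1c, Klre1, Klra8, Klra4 and Eomes, with 0 UMIs of Cd3d, Cd3e, Cd3g (T cells), Csf1r (macrophages) and Cd79a (B cells). The levels of these 11 genes in the members are therefore a description only. There were 421 members among 19868 barcodes of the AF12198-treated tumour, 452 among 21398 of the control tumour, 2 among 1124 of the ligated pancreas and 0 among 1772 of the normal pancreas.

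Each of the 4 groups was a single library. The AF12198-treated and control tumours grew from KPC cells, a mouse pancreatic cancer line, placed into a pancreas whose duct had been closed by a suture. The host then received AF12198, a peptide that blocks the interleukin-1 receptor IL1R1, or saline into the peritoneum each week. The ligated pancreas had the suture without tumour cells, the normal pancreas had neither, and tissue was collected at 4 weeks. The tumours share the ligation and the implanted cells, and differ by the weekly agent. Strain, sex and age of the mice, and how many mice went into a library, stand in none of the sources used here.

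NK cells are innate lymphocytes that kill stressed, infected or transformed cells by releasing granules of perforin and granzymes, and that call in other immune cells with chemokines and interferon-gamma. In the mouse their activity is set by a balance of activating and inhibitory receptors, many encoded in the NK gene complex, among them the Ly49 family that reads MHC class I. In pancreatic tumours they are known as a minor part of the infiltrate, and interleukin-1 acts on the myeloid cells and fibroblasts around them.

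The tumour libraries held 96886820 UMIs (AF12198-treated) and 95779324 UMIs (control), against 5360054 in the ligated and 11350597 in the normal pancreas. Median UMIs per kept barcode were 2425, 2166, 2216 and 1595.5 in the order AF12198-treated tumour, control tumour, ligated pancreas and normal pancreas. Barcodes in the files reached down to 760 UMIs for the control tumour and to 500 UMIs for each other library. The tumour libraries shared 129 barcode sequences, and none of these was a member in both. With 1 library per group there is no replicate and no test. Intervals are 95% and cover counting error only: exact binomial for shares, exact Poisson for counts and exact conditional for ratios.

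The label was checked against 9 NK markers that the rule did not use: Gzma, Klrd1, Prf1, Klrk1, Tbx21, Il2rb, Txk, Sh2d1b1 and Klri2. The members fell into 2 ranges. With at least 5 UMIs of these markers per 10000 there were 330 members of the AF12198-treated tumour, 333 of the control tumour and both of the ligated pancreas. They are called NK-like here, a range on a score and not a cell type. Near the bound, 8 and 4 members of the AF12198-treated and control tumours held 2 to under 5 marker UMIs per 10000, and 17 and 9 members held 5 to under 10. At 20 or more stood 286 and 305 members, and 69 and 76 had none of the 9 markers at all.

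The members below the bound, 91 in the AF12198-treated tumour and 119 in the control tumour, did not carry an NK profile. They held 74.0% and 83.3% of the members' UMIs in these libraries, since their median depth was 24706 and 31511 UMIs, against 2222 and 1751 in NK-like members. Of the 91 and 119, 61 and 98 were rich in epithelial transcripts, here called keratin-rich (at least 20 UMIs per 10000 of Epcam, Krt8, Krt18, Krt19, Cldn4 and Tff1). Ptprc, the pan-leukocyte gene CD45, had no UMI in 62 and 75 of them, and a UMI in 315 of 330 and 317 of 333 NK-like members. Klra4 was the sole rule gene found in 67 and 90 of them. Of the NK-like members 2 and 3 were keratin-rich. For these reasons gene levels below are those of the NK-like members, and the label NK cell is not used for the others. The bound was set after the values had been seen. The NK-like members are not all free of other profiles. More UMIs of NK markers than of any other class, lymphoid classes other than B and plasma cells aside, were held by 267 of 330 and 251 of 333. These barcodes held 635845 of the 984195 NK-like UMIs in the AF12198-treated tumour and 503353 of 802445 in the control tumour.

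**Figure D1:**
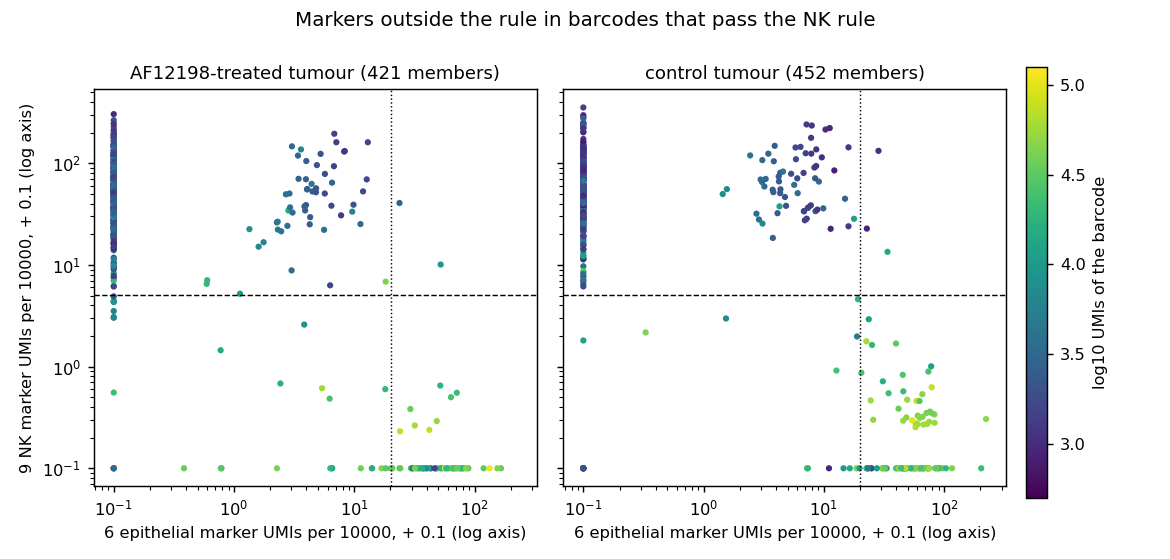
UMIs of the 9 NK markers outside the rule (y, per 10000 plus 0.1, log axis) against UMIs of 6 epithelial markers (x, per 10000 plus 0.1, log axis) for each member, AF12198-treated tumour on the left and control tumour on the right, coloured by log10 of the UMI total. The dashed horizontal line is the bound of 5 and the dotted vertical line the 20 epithelial UMIs per 10000. The 91 and 119 members below the bound are mostly deep barcodes high in epithelial transcripts.

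Klra4, which encodes the activating receptor Ly49D, set those barcodes apart from its neighbour Klra8, which encodes the activating receptor Ly49H. Both lie on the minus strand of mouse chromosome 6 in the NK gene complex, Klra4 at chr6:130043731-130067271 and Klra8 at chr6:130115226-130129898 (GRCm38). Among all keratin-rich barcodes, members or not, Klra4 had a UMI in 141 of 1126 (12.5%, 10.6 to 14.6) in the AF12198-treated tumour and 220 of 1230 (17.9%, 15.8 to 20.1) in the control tumour. It had none in 262 such barcodes of the ligated pancreas, which allows up to 1.15%, and none in 931 of the normal pancreas, which allows up to 0.322%. Klra8 had 9 and 14 UMIs in the keratin-rich barcodes of the AF12198-treated and control tumours, where Klra4 had 415 and 639. In NK-like members the same pair stood at 521 and 320 UMIs of Klra8 beside 490 and 378 of Klra4. The keratin-rich barcodes thus did not hold the 2 genes in the ratio of the NK-like members.

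Most of the Klra4 lay in keratin-rich barcodes that also held Hmga2, a chromatin gene known as an oncofetal marker. There Klra4 had a UMI in 113 of 296 barcodes (38.2%) in the AF12198-treated tumour and in 188 of 475 (39.6%) in the control tumour, at 58.6 and 50.1 CPM (the usual count scaled to sequencing depth). Without an Hmga2 UMI it was found in 28 of 830 (3.37%) and 32 of 755 (4.24%), at 6.05 and 8.96 CPM. Their depths differed, with medians of 17985.5 and 20310 UMIs with Hmga2 and 2667 and 2291 UMIs without. CPM is scaled to depth, but whether an Hmga2 UMI is seen depends on depth too. What depth contributed to the difference was not tested. In the ligated and normal pancreas 5 and 14 keratin-rich barcodes held Hmga2 and none held Klra4. Whether these reads come from the Klra4 mRNA or from another transcript over the locus was not tested. The Ly49 genes are close copies of each other, so that counts of single members can be split or dropped where reads match more than 1 of them.

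The RefSeq promoters of the pair (GRCm38.p6, minus strand, 250 bases before to 50 after the start, Klra4 at chr6:130067222-130067521 and Klra8 at chr6:130129849-130130148) are shown because 1 gene was found in keratin-rich tumour barcodes and the other hardly at all. Aligned, 259 of 301 columns were identical (86.05%), and each sequence has 1 base without a partner. Capitals mark bases that differ or have no partner.
Klra4: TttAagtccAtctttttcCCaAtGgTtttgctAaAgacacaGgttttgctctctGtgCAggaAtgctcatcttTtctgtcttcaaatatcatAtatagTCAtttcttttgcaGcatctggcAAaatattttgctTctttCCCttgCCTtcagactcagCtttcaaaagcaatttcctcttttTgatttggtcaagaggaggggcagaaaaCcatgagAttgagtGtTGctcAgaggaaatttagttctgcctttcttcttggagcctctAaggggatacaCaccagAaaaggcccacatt
Klra8: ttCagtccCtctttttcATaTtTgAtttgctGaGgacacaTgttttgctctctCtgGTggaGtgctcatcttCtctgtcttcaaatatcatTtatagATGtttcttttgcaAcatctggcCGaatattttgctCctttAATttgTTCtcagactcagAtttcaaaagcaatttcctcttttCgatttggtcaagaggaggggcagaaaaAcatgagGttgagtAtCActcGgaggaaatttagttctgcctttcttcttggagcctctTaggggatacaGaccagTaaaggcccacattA

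**Figure D2:**
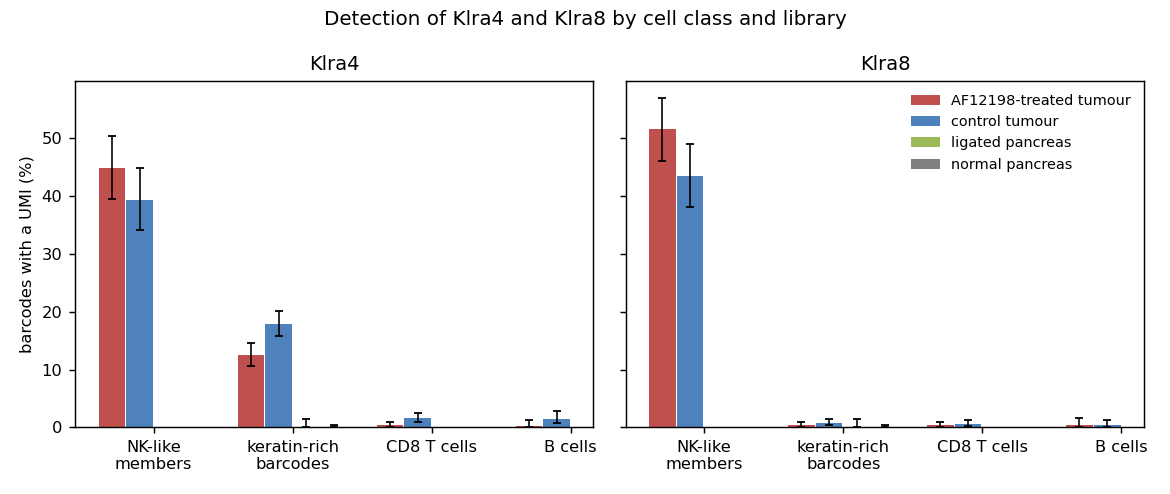
Percent of barcodes with a UMI of Klra4 and of Klra8 (y) in NK-like members, keratin-rich barcodes, CD8 T cells and B cells of each library (x), with exact binomial intervals; classes of under 25 barcodes are left out. In NK-like members both genes stood between 39.3% and 51.5%, and in keratin-rich barcodes of the tumours Klra4 stood at 12.5% and 17.9% with Klra8 at 0.355% and 0.813%.

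Within the NK-like members each rule gene was found in a part of the cells. In the AF12198-treated and control tumours Klre1 had a UMI in 64.5% and 70.0%, Klrb1c (NK1.1) in 48.8% and 52.9%, Klra8 in 51.5% and 43.5%, Eomes in 45.5% and 48.0%, Klra4 in 44.8% and 39.3% and Ncr1 (NKp46) in 24.2% and 24.3%. Klre1 was also found in 40.7% and 38.3% of CD8 T cells, gated on Cd3 and Cd8 transcripts. It was the sole rule gene in 382 and 340 of them. Eomes was found in 6.35% and 5.26% of CD8 T cells and each other rule gene in at most 1.55%. Klre1 alone thus does not separate NK cells from CD8 T cells here. Whether T cells without a Cd3 UMI entered the members was not tested. At the edge of the rule, 103, 124, 1 and 0 members of the AF12198-treated tumour, control tumour, ligated pancreas and normal pancreas had exactly 2 UMIs of the 6 genes. Their median of the 9 other NK markers was 6 UMIs in the AF12198-treated tumour and 4 in the control tumour. Just outside, 258, 411, 6 and 2 barcodes had exactly 1 UMI, with a median of 0 of these markers in every library, and 89 and 112 of those in the AF12198-treated and control tumours reached the NK-like bound. A further 458 and 450 tumour barcodes met the NK sum but were left out for a UMI of an exclusion gene, mostly Cd3 (413 and 371).

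Members held similar shares of both tumour libraries. They were 2.12% (1.92 to 2.33) of the kept barcodes of the AF12198-treated tumour and 2.11% (1.92 to 2.31) of the control tumour, a ratio of 1.00 (0.876 to 1.15). In the ligated pancreas they were 0.178% (0.0216 to 0.641), and in the normal pancreas 0 of 1772, which allows up to 0.169%, taken as 3 counts of the total like every limit set on a count of 0. NK-like members alone were 1.66% and 1.56%, a ratio of 1.07 (0.914 to 1.25). Set against gated lymphocytes (NK, T and B cells together) the members held 13.3% in the AF12198-treated tumour and 15.4% in the control tumour, a ratio of 0.865 (0.755 to 0.990), and the NK-like members 10.7% and 11.8% (0.909, 0.779 to 1.06). For every 100 CD8 T cells, gated on Cd3 and Cd8 transcripts, there were 32.3 and 34.4 NK-like members. The control share was 11.9 times (3.27 to 98.3) that of the ligated pancreas, but over barcodes with a Ptprc UMI the shares were 2.52% and 1.01%, a ratio of 2.49 (0.685 to 20.7). Ptprc was found in 198 barcodes of the ligated and 43 of the normal pancreas.

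The 2 members of the ligated pancreas were shallow. The first had 1015 UMIs, with 2 of Klrb1c, 3 of the interleukin receptor chain Il2rb and 6 of the kinase Txk. The second had 821 UMIs, with 2 of Klre1, 1 of Klra4, 2 of the type 1 regulator Tbx21, 1 of Il2rb and 2 of the T cell receptor gene Trbc1. Gzma, Prf1, Nkg7 and Ccl5 had no UMI in either. With so few members no gene comparison of the control tumour with the ligated pancreas was made.

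UMIs were summed over the NK-like members of each tumour and scaled to CPM by the summed total (984195 UMIs in the AF12198-treated tumour and 802445 in the control tumour). A gene was compared with 30 or more UMIs over both tumours, which left 6575 genes, and was counted as higher or lower in the AF12198-treated tumour at 1.5-fold. Of these, 619 (9.41%) were higher and 2210 (33.6%) lower. Over all members, with the keratin-rich barcodes among them, the counts were 911 (8.22%) and 3746 (33.8%) of 11081. The median log2 ratio over all NK-like genes was -0.35. Over all members the list medians below ran from -0.57 (cell cycle) to 0.74 (immature NK genes), and their highest and lowest ratios, ranked alike, were led by Gm35533 and Ighg2b. These sums are mostly those of the keratin-rich barcodes, and the values that follow are of NK-like members. Read relative to the NK-like median, 1212 genes stood higher and 1099 lower. With TMM scaling the counts were 1353 and 965, without mitochondrial, ribosomal protein, haemoglobin and rRNA-like genes 858 and 1465, and with the profile of the whole library subtracted 2725 and 996. That profile was scaled in each tumour to the summed level of 9 neutrophil markers in the NK-like members. These markers stood at 3351 and 3425 CPM there and 8123 and 4977 CPM over all kept barcodes of the AF12198-treated and control tumours. A larger part was thus subtracted in the control tumour. For S100a9 of this list, 5 barcodes held 48.6% and 54.0% of the UMIs in NK-like members.

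The shift went with the length of transcripts. In NK-like members the 252 genes with transcripts under 800 bases had a median log2 ratio of 0.56, the 2716 genes of 800 to under 3000 bases -0.19 and the 3604 genes of 3000 bases or more -0.48. CD8 T cells gave medians of 0.49, -0.32 and -0.61 for the same classes, and B cells 0.57, -0.17 and -0.44. Ribosomal protein genes took 20.7% of the NK-like UMIs in the AF12198-treated tumour and 10.7% in the control tumour, and 16.8% and 10.5% over all kept barcodes. This library difference and the treatment cannot be told apart with 1 library each. A log2 ratio relative to genes of the same length class is therefore given beside the main results, and called length-relative.

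**Figure D3:**
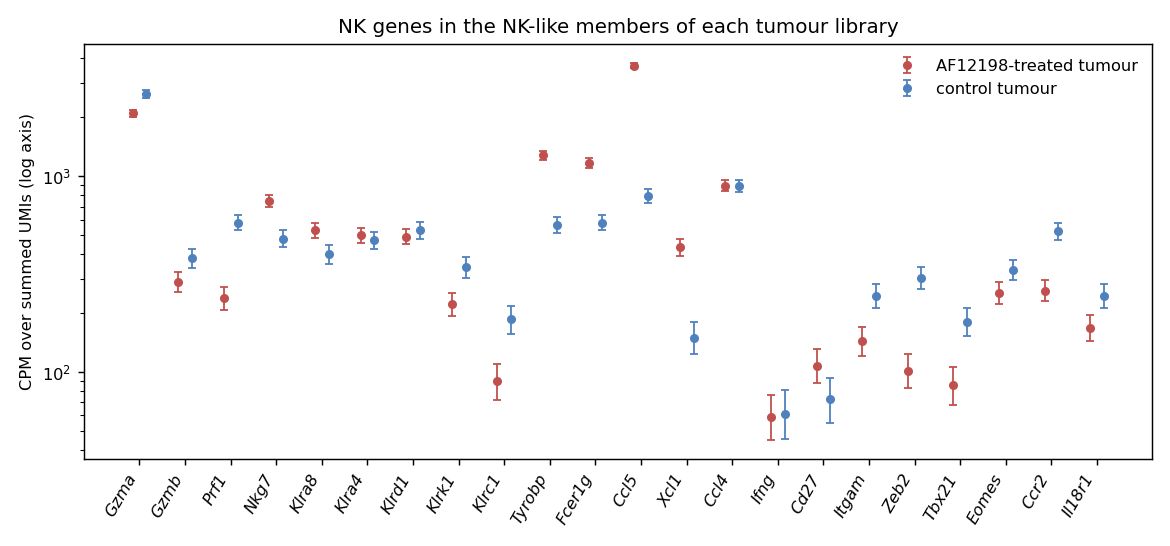
Level of 22 NK genes in NK-like members (y, CPM, log axis) in the AF12198-treated tumour and the control tumour, with exact Poisson intervals. Ccl5 stood at 3674 and 794 CPM, Gzma at 2093 and 2629.5 CPM and Prf1 at 238 and 579 CPM.

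Granule and killing genes were led by granzyme A and went in both directions. Of 26 genes on the list 19 could be compared, 4 stood higher and 5 lower, beside 9.41% and 33.6% of all genes. Their median log2 ratio was -0.33 beside -0.35 over all genes, and 0.12 with the library profile subtracted. Gzma, a serine protease of the killing granule, stood at 2093 CPM in the AF12198-treated tumour and 2629.5 CPM in the control tumour, 0.796 times (0.749 to 0.846). Gzma and Prf1 are among the 9 markers behind the NK-like range, so their levels are descriptions. Gzmb, the caspase-cleaving granzyme, stood at 289 and 380.1 CPM, 0.759 times (0.644 to 0.895). Perforin, which opens the target membrane, stood lower by more than the other main killing genes, with Prf1 at 238 CPM in the AF12198-treated tumour and 579 CPM in the control tumour, 0.410 times (0.349 to 0.481, length-relative log2 -1.09). Prf1 stayed lower without barcodes that held as many markers of another class, at 0.440 times.

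Among the other granule genes, the granule membrane protein Nkg7 stood at 747 CPM in the AF12198-treated tumour and 479.8 CPM in the control tumour, 1.56 times (1.37 to 1.77). The granule proteoglycan Srgn was 1.58 times as high and the cystatin Cst7 1.85 times. Lower were, beside Prf1, the protease inhibitor Serpinb9b (24 and 31 UMIs), the granzyme-activating protease Ctsc (119.9 and 214 CPM), the granule membrane gene Lamp1 (139 and 222 CPM) and the release factor Stxbp2 (23.4 and 54.8 CPM). Gzmc was 2.38 times as high, but 5 barcodes held 95.4% and 81.7% of its UMIs in the AF12198-treated and control tumours, and the ratio turned to 0.279 without barcodes that held as many markers of another class. In CD8 T cells of the same libraries Gzma stood 4.37 times and Gzmb 2.76 times as high in the AF12198-treated as in the control tumour, with Prf1 at 0.888 times. The NK-like ratios of these 3 genes were 0.796, 0.759 and 0.410.

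Per cell, depth was evened by thinning each to 1000 UMIs, which left out 9 shallower NK-like members of the AF12198-treated tumour and 35 of the control tumour (medians of 2241 and 1908.5 UMIs before thinning). Gzma was seen in 62.6% (57.1 to 67.9) of the AF12198-treated and 67.1% (61.5 to 72.4) of the control NK-like members. Prf1 was seen in 21.5% (17.1 to 26.4) of the AF12198-treated and 39.9% (34.3 to 45.7) of the control NK-like members. The intervals cover counting error only, and cells are not replicates of a treatment. Gzma and Prf1 also helped to choose these cells. In B cells, which should lack both and had medians of 2217 and 2277.5 UMIs, Gzma was seen in 0.703% and 0.498% and Prf1 in none of 427 and in 1.83%. Unthinned, Gzma was found in 71.2% and 75.7% and Prf1 in 41.5% and 58.3% of the NK-like members.

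Among cytokine and chemokine genes Ccl5 and Xcl1 stood higher in the AF12198-treated tumour. Of 17 genes 12 could be compared, 3 stood higher (these and Areg) and 1 lower (Flt3l), beside 9.41% and 33.6% of all genes. Their median log2 ratio was 0.12. Ccl5, the chemokine RANTES that draws T cells and monocytes, stood at 3674 CPM in the AF12198-treated tumour and 794 CPM in the control tumour, 4.63 times (4.25 to 5.04, length-relative log2 1.65). Xcl1, which draws cross-presenting dendritic cells, stood at 433 and 149.5 CPM, 2.89 times (2.36 to 3.57, length-relative log2 0.98). Both transcripts are short, and in both tumours each was far above the level in B cells: after thinning Ccl5 was seen in 82.2% (77.6 to 86.3) and 44.3% (38.6 to 50.1) of the NK-like members and in 3.75% and 1.83% of the B cells. Xcl1 was seen in 27.7% (22.9 to 32.97) and 13.4% (9.77 to 17.8), and in 0.468% and 0.332% of the B cells. The higher levels were found in other cells too. Ccl5 stood 5.87 times as high in CD8 T cells, 5.21 times in B cells and 6.24 times over all kept barcodes, and Xcl1 3.06 times in CD8 T cells and 3.37 times over all barcodes.

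Interferon-gamma, the main cytokine of NK cells, showed no difference detectable at this depth: Ifng stood at 58.9 CPM in the AF12198-treated tumour and 61.1 CPM in the control tumour, 0.965 times (0.648 to 1.44), where CD8 T cells gave 1.90. The chemokines Ccl3 and Ccl4 stood at 1.40 times (1.23 to 1.58) and 1.00 times (0.908 to 1.11). Their counts were uneven among cells, with 39.6% and 40.8% in 5 barcodes of the AF12198-treated tumour, and the thinned share with a Ccl4 UMI was 21.5% in the AF12198-treated and 40.6% in the control tumour. Tnf, an inflammatory cytokine, stood at 193 and 133 CPM, 1.45 times (1.14 to 1.85), with 47.4% and 59.8% of its UMIs in 5 barcodes. Flt3l, a growth factor for dendritic cells, stood at 20.3 and 57.3 CPM, 0.354 times (0.199 to 0.611). Il10, an anti-inflammatory cytokine too scarce to be compared, had 0 UMIs in the AF12198-treated and 19 in the control NK-like members. Areg, an epidermal growth factor ligand, stood at 87 against 6 UMIs, of which 5 barcodes held 88.5% and 83.3%.

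No Ly49 receptor stood higher by 1.5-fold. Of 12 genes on the list 11 were in the files and 7 could be compared. Of these 0 stood higher and 1 lower, beside 9.41% and 33.6% of all genes, with a median log2 ratio of -0.32. Klra8 stood at 529 CPM in the AF12198-treated tumour and 399 CPM in the control tumour, 1.33 times (1.15 to 1.53), and Klra4 at 498 and 471 CPM, 1.06 times (0.922 to 1.21). The inhibitory receptors Klra7 (Ly49G) and Klra9 (Ly49I) stood at 201 and 252 CPM and at 115 and 168 CPM, 0.799 times (0.654 to 0.977) and 0.682 times (0.527 to 0.883). Klra3 stood at 0.725 times and Klra1 at 0.881 times, with intervals that hold 1. The 1 lower gene was Klra5 with 12 and 21 UMIs, of which 5 barcodes held 100% and 85.7%. Klra8 and Klra4 were used by the rule, so their levels describe the choice as well as the cells.

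NK cells are known to express Ly49 genes in overlapping combinations. After thinning, 34.3% of the AF12198-treated and 33.2% of the control NK-like members showed no Ly49 gene, 29.6% and 35.2% showed 1, 27.1% and 19.5% showed 2, and 9.03% and 12.1% showed 3 or more. Klra8 and Klra4 were both seen in 47 of 321 AF12198-treated and 37 of 298 control cells. Klra4 was seen in 38.2% and 38.9% of the cells with Klra8, and in 25.8% and 27.6% of those without it. At 1000 UMIs most transcripts of a cell go unseen, which raises the share with no Ly49 gene. Klra8 and Klra4 were used by the rule, which lowers that share and affects how often the pair was seen. These shares are therefore descriptions only and no bound for NK cells.

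Of 32 other receptor and adaptor genes 29 could be compared, 4 stood higher and 9 lower in the AF12198-treated tumour, beside 9.41% and 33.6% of all genes, with a median log2 ratio of -0.26. The higher 4 were Tyrobp, Fcer1g, Hcst and Cd7. Tyrobp (DAP12), which signals for Ly49D and Ly49H, stood at 1278 CPM in the AF12198-treated tumour and 563 CPM in the control tumour, 2.27 times (2.04 to 2.53, length-relative log2 0.62). Fcer1g, the adaptor of NKp46 and of the Fc receptor, stood at 1172 and 579 CPM, 2.02 times (1.81 to 2.26, length-relative log2 0.46). Hcst (DAP10), the adaptor of NKG2D, was 1.86 times as high (length-relative log2 0.34). All 3 adaptors have short transcripts and stood higher over all kept barcodes too, at 2.88, 2.41 and 1.98 times. Myeloid cells also express Tyrobp and Fcer1g. The adaptor Lat2 stood lower, at 55.9 and 127 CPM, 0.440 times (0.311 to 0.616). Cd7 stood at 145 and 44.9 CPM, 3.24 times (2.23 to 4.81, length-relative log2 1.89), and at 1.74 times in CD8 T cells.

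Among the 9 lower genes were receptors of the NKG2 group. Klrc1, the inhibitory NKG2A, stood at 89.4 CPM in the AF12198-treated tumour and 186 CPM in the control tumour, 0.482 times (0.366 to 0.631). Klrc2, the activating NKG2C, stood at 145 and 280.4 CPM, 0.518 times (0.417 to 0.642), where CD8 T cells gave 1.38. Their shared partner Klrd1 (CD94) did not pass 1.5-fold, at 491 and 529.6 CPM, 0.927 times (0.812 to 1.06). Klrk1, the activating receptor NKG2D for stress ligands, stood at 223 and 343 CPM, 0.649 times (0.541 to 0.778, length-relative log2 -0.15). Klrd1 and Klrk1 are among the 9 markers behind the NK-like range, so their levels are descriptions. Cd244a (2B4) and Cd226 (DNAM-1), which sense ligands on target cells, stood at 0.416 and 0.480 times. The natural cytotoxicity receptor Ncr1, of the rule, stood at 95.5 and 141 CPM, 0.678 times (0.510 to 0.900).

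The checkpoint receptors known from exhausted T cells were scarce in NK-like members. Of 14 genes 9 could be compared, with a median log2 ratio of -0.54. Of these 0 stood higher and 2 lower, beside 9.41% and 33.6% of all genes. The 2 were Klrc1, above, and Ctla4, at 14 UMIs in the AF12198-treated tumour and 37 in the control tumour. Pdcd1 (PD-1) had 6 and 8 UMIs, Tigit 1 and 2 and Lag3 8 and 17. At these counts a difference was not detectable for Pdcd1, whose ratio was 0.612 (0.175 to 2.01). Cish, a brake on interleukin-15 signalling, stood at 73.2 and 108 CPM, 0.675 times (0.487 to 0.933), just short of 1.5-fold.

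Genes of mature and immature NK cells gave a mixed picture. Of 16 mature genes 14 could be compared, 3 stood higher and 4 lower (median log2 -0.31), and of 17 immature genes 16 could be compared, 5 higher and 2 lower (median log2 0.03). Over all genes 9.41% stood higher and 33.6% lower. Lower among the mature genes were Zeb2, a factor that drives the last steps of maturation (102 CPM in the AF12198-treated tumour and 302 CPM in the control tumour, 0.337 times, 0.264 to 0.427), the integrin Itgam (143 and 244 CPM, 0.587 times), Prdm1 (19 and 31 UMIs) and Ly6c2 (56.9 and 122 CPM). The higher ones were S100a4, S100a6 and Emp3. S100a6 was 2.07 times as high with 56.6% of its UMIs in 5 barcodes of the AF12198-treated tumour, and at 1.03 times without barcodes that held as many markers of another class.

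Among the immature genes Xcl1 and Cd7, above, stood higher, with Ctla2a (754 and 497 CPM, 1.52 times, 1.34 to 1.72), the stem cell factor receptor Kit (64.01 and 39.9 CPM, 1.61 times, 1.03 to 2.54) and Ccr7, of which 5 barcodes held 79.3% and 76.9%. Cd27, the receptor that marks the less mature stages, stood at 108 and 72.3 CPM, 1.49 times (1.07 to 2.09). After thinning, Cd27 was seen in 14.6% of the AF12198-treated and 8.39% of the control NK-like members, and Itgam in 16.2% and 21.1%. Itgam also marks myeloid cells. It was seen in 3.04% and 8.14% of the B cells, and Zeb2, seen in 7.79% and 23.2% of the NK-like members, in 4.22% and 15.8% of the B cells. Zeb2 stood at 0.413 times in CD8 T cells and 0.294 times in B cells.

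Of 28 transcription factors 26 could be compared, 0 stood higher and 12 lower, beside 9.41% and 33.6% of all genes. Their median log2 ratio was -0.51 beside -0.35 over all genes. Tbx21 (T-bet), which with Eomes sets the NK programme, stood at 85.3 CPM in the AF12198-treated tumour and 181 CPM in the control tumour, 0.472 times (0.357 to 0.622, length-relative log2 -0.89). Tbx21 is among the 9 markers behind the NK-like range, so its level is a description. Eomes, of the rule, stood at 253 and 333 CPM, 0.760 times (0.637 to 0.907, length-relative log2 0.08). Irf8, needed for antiviral NK responses and also a myeloid factor, stood at 875 and 1525 CPM, 0.574 times (0.525 to 0.626). The stress-responsive Bhlhe40 stood at 0.485 times (0.420 to 0.560). Runx3, Gata3 and Tcf7 stood close to the control, at 1.11, 0.959 and 1.02 times. Some of these factors were lower in CD8 T cells too, with Tbx21 at 0.551 and Bhlhe40 at 0.469 times.

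Receptors for the cytokines that feed NK cells were mostly level. Of 21 genes 15 could be compared, 0 stood higher and 3 lower, beside 9.41% and 33.6% of all genes. Their median log2 ratio was -0.20. Il2rb, the chain shared by the receptors for interleukins 2 and 15 and the most widely seen receptor, stood at 1299.5 CPM in the AF12198-treated tumour and 1369.6 CPM in the control tumour, 0.949 times (0.875 to 1.03). Il2rb is among the 9 markers behind the NK-like range, so its level is a description. The interferon-gamma receptor Ifngr1 stood at 0.971 times (0.878 to 1.07) and the interleukin-12 receptor Il12rb2 at 1.37 times (0.964 to 1.96). The 3 lower genes were the interleukin-10 receptor chains Il10ra (52.8 and 95.96 CPM) and Il10rb (67.1 and 113 CPM) and the type I interferon receptor Ifnar2 (51.8 and 90.97 CPM).

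AF12198 blocks IL1R1, and NK-like members held next to none of its transcript. Il1r1 had 1 UMI in the AF12198-treated tumour and 6 in the control tumour, a ratio of 0.136 (0.00295 to 1.12), so a difference was not detectable. Of 15 genes of the interleukin-1 family and its signalling 12 could be compared, with a median log2 ratio of -0.68. Of these 0 stood higher and 7 lower, beside 9.41% and 33.6% of all genes. The interleukin-18 receptor chains, which are the family members NK cells are known for, stood at 168 and 244 CPM (Il18r1, 0.686 times, 0.555 to 0.849, length-relative log2 -0.07) and at 172 and 239 CPM (Il18rap, 0.718 times, 0.580 to 0.887). Lower past 1.5-fold were the decoy receptor Il1r2, Il1rap, the adaptor Myd88, Irak1, Irak4, Traf6 and Tab2. Tab2 stood at 203 and 389 CPM, 0.523 times (0.435 to 0.626), and at 0.517 times in CD8 T cells. Il1r2 stood at 252 and 471 CPM and is also a neutrophil marker. It was seen in 9.37% and 14.8% of thinned B cells beside 12.2% and 21.8% of NK-like members, and its ratio of 0.535 turned to 3.14 when the profile of the whole library was subtracted. Il1r2 is among the neutrophil markers that set how much was subtracted, so the 3.14 is no separate check. The interleukin-1 list gave a median of -0.60 in CD8 T cells.

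Of 24 homing and adhesion genes 21 could be compared, 2 stood higher and 7 lower, beside 9.41% and 33.6% of all genes. Their median log2 ratio was -0.24. A chemokine receptor for inflamed tissue stood lower. Ccr2, also a monocyte gene, stood at 260.1 CPM in the AF12198-treated tumour and 522 CPM in the control tumour, 0.498 times (0.425 to 0.583). It was lower in CD8 T cells too, at 0.561 times. The integrin Itgal (LFA-1), used to form the killing synapse, stood at 275 and 509.7 CPM, 0.540 times (0.462 to 0.631). Cxcr4, which holds cells in tissue, stood at 1.19 times (1.05 to 1.36) and the NK integrin Itga2 at 0.823 times.

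Of 15 genes of type 1 innate lymphoid cells and tissue residency 11 could be compared, with a median log2 ratio of -0.80. Of these 0 stood higher and 6 lower, beside 9.41% and 33.6% of all genes. Among the 6 were Itga1, Cxcr6, Cd69, Tmem176b and Inpp4b. Itga1 (CD49a) stood at 54.9 CPM in the AF12198-treated tumour and 106 CPM in the control tumour, 0.518 times (0.361 to 0.737) and 1.46 times with the library profile subtracted, and Cxcr6 at 10 and 24 UMIs, with 90% and 66.7% of them in 5 barcodes. The activation and residency gene Cd69 stood at 0.576 times (0.397 to 0.830), and was seen in 4.05% and 9.40% of thinned NK-like members, below the 9.84% and 15.4% of B cells. Zfp683 (Hobit), a residency factor, had 0 and 1 UMIs. The summed level of the 9 marker genes of these cells was 229 CPM in the AF12198-treated and 409 CPM in the control NK-like members, and 608 and 647 CPM over all kept barcodes.

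Calcium and NFAT genes form a group of their own because the study's title names NFAT, a calcium-driven factor. Of 20 genes 19 could be compared, 2 stood higher and 8 lower, beside 9.41% and 33.6% of all genes. Their median log2 ratio of -0.51 turned to 0.08 with the library profile subtracted. Of the NFAT factors, Nfatc1 stood at 229.6 CPM in the AF12198-treated tumour and 202 CPM in the control tumour, 1.14 times (0.925 to 1.40), and Nfatc2 at 43 and 25 UMIs (1.40, 0.837 to 2.40), while Nfat5 stood at 0.628 times (0.499 to 0.789) and at 1.06 times with the library profile subtracted. The calcineurin subunits Ppp3ca, Ppp3cb and Ppp3r1 stood at 0.537, 0.443 and 0.344 times. The calcium channel Orai1 stood at 124 and 82.2 CPM, 1.51 times (1.11 to 2.07). The other higher gene was Rcan1, with 78.6% of its 28 UMIs in the AF12198-treated tumour in 5 barcodes.

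The early-response gene Nr4a1 stood at 387 CPM in the AF12198-treated tumour and 1276 CPM in the control tumour, 0.303 times (0.269 to 0.342, length-relative log2 -1.53). Its relatives Nr4a2 and Nr4a3 stood at 0.950 times (0.862 to 1.05) and 1.08 times (0.972 to 1.19). Nr4a1 was also lower in CD8 T cells (0.268), B cells (0.470) and all kept barcodes (0.320). Of 25 genes that respond at once to stimuli or to tissue digestion all could be compared. Of these 3 stood higher and 12 lower, beside 9.41% and 33.6% of all genes. The median log2 ratio was -0.48 in NK-like members, -0.84 in CD8 T cells and -0.75 over all kept barcodes. With the library profile subtracted the median in NK-like members turned to 1.56. Junb stood at 1839 and 4222 CPM, 0.436 times (0.411 to 0.461), Fos at 0.327, Dusp1 at 0.305 and the heat shock genes Hspa1a and Hspa1b at 0.198 and 0.211 times. Higher were the chaperones Hspa8 (1.56), Dnaja1 (1.60) and Hspe1 (1.61). With the library profile subtracted the ratios of Junb and Dusp1 turned to 1.09 and 1.23. Whether digestion contributed was not tested.

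Of 16 NF-kB genes all could be compared, 1 stood higher and 5 lower, beside 33.6% of all genes lower, with a median log2 ratio of -0.36 that turned to 0.63 with the library profile subtracted. The factor Nfkb1 stood at 433 CPM in the AF12198-treated tumour and 783 CPM in the control tumour, 0.553 times (0.488 to 0.626), Nfkbiz at 0.531 and the feedback inhibitor Tnfaip3 at 0.604 times (0.539 to 0.677). Interferon-induced genes went both ways: of 30 genes 29 were in the files and 21 could be compared. Of these 4 stood higher and 3 lower, beside 9.41% and 33.6% of all genes, with a median log2 ratio of -0.24. Isg15 stood at 1.25 times (0.949 to 1.66), and Ifitm1 and Ifitm3 at 2.73 and 2.30 times, with 64.4% and 56.1% of their UMIs in 5 barcodes of the AF12198-treated tumour. Of 14 MHC class I genes all could be compared, 0 higher and 4 lower, beside 33.6% of all genes lower, with a median log2 ratio of -0.46 that turned to 0.04 with the library profile subtracted. H2-K1 stood at 2261 and 3734 CPM, 0.606 times (0.573 to 0.640), and its light chain B2m at 0.686 times (0.653 to 0.720), while H2-D1 stood at 1.21 times (1.12 to 1.30). These class I genes are close copies, and their counts carry the same doubt as the Ly49 genes.

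Mki67, the marker of dividing cells, had 48 UMIs in the AF12198-treated tumour and 31 in the control tumour, of which 5 barcodes held 83.3% and 74.2%, and was seen in 1.25% and 2.35% of thinned members. B cells gave 1.64% and 2.49%. Of 27 cell cycle genes 18 could be compared, 3 stood higher (Stmn1, Nusap1 and Hist1h1b) and 3 lower (Rrm1, Rrm2 and Mcm6). Over all genes 9.41% stood higher and 33.6% lower. The median log2 ratio of the cell cycle genes was 0.10. Of 24 glycolysis and hypoxia genes all could be compared, 2 stood higher and 5 lower, beside 9.41% and 33.6% of all genes. Their median log2 ratio was -0.26. Gapdh stood at 474 and 152 CPM, 3.12 times (2.55 to 3.84), and at 2.46 times in CD8 T cells, while Pgk1 stood at 0.612 and the oxygen-regulated factor Hif1a at 0.582 times.

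**Figure D4:**
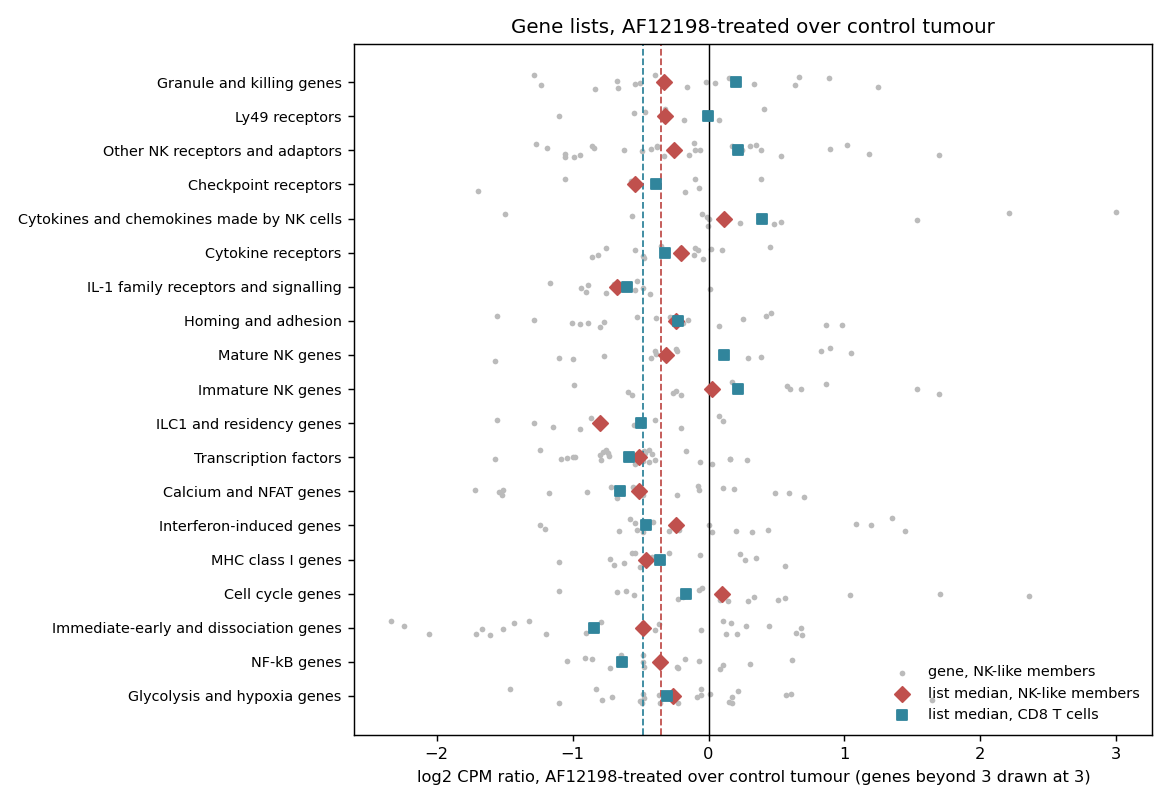
Log2 ratio of the AF12198-treated over the control tumour (x) for the genes of 19 lists (rows): grey points are genes in NK-like members, red diamonds the list medians in NK-like members and blue squares those in CD8 T cells; dashed lines mark the medians of all genes, -0.35 and -0.48. The list medians of NK-like members lie between -0.80 and 0.12.

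Genes of other cell types were among the largest differences, and most of them differed over all kept barcodes too. Ranked over all genes, the 12 highest ratios in NK-like members were those of the acinar enzymes Ctrb1 (1353 CPM in the AF12198-treated and 22.4 CPM in the control tumour), Prss2, Try5, Cela3b, Try4, Rnase1, Pnliprp1 and Cpb1, the acinar stress genes Reg1 and Reg2, the keratinocyte gene Sprr1a and the chemokine Cxcl14. From 69.02% (Try4) to 100% (Sprr1a) of their UMIs in the AF12198-treated tumour lay in 5 barcodes. The 12 lowest were the antibody genes Ighg2b, Ighg2c, Ighg1, Igkc (105 and 1302 CPM) and Igha, the stromal genes Dcn, Timp1, Fn1 and Mgp, and Saa3, Dmbt1 and Ccl2. Dmbt1 stood at 0.145 times in NK-like members but at 1.79 times over all kept barcodes. Sprr1a and Cxcl14 stood at 41.2 and 17.0 times in NK-like members but were nearly level over all kept barcodes, at 1.03 and 1.15 times. The other genes of both rankings went in the same direction over all kept barcodes.

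As whole marker lists, 7 acinar markers summed to 3129 CPM in the AF12198-treated and 93.5 CPM in the control NK-like members (7605 and 679 over all kept barcodes), with none of the 7 at 0. Plasma cell markers summed to 137 and 1669 CPM (3706 and 10748 over all kept barcodes), fibroblast markers to 931 and 3056 CPM, macrophage and monocyte markers to 675 and 1472 CPM and neutrophil markers to 3351 and 3425 CPM. Of these lists 1 of 5 plasma cell and 1 of 10 macrophage markers was at 0 in each tumour, and none of the 6 fibroblast and 9 neutrophil markers. The median NK-like member of the AF12198-treated tumour held 76.9 UMIs of the 15 NK markers per 10000, 6.31 of acinar, 4.50 of macrophage, 0.233 of neutrophil and 0 of plasma cell, fibroblast and epithelial markers. In the control tumour the medians were 88.4 of NK, 0 of acinar, 13.1 of macrophage, 3.84 of neutrophil, 17.7 of plasma cell and 2.55 of fibroblast markers. The 15 NK markers were used to choose these cells, so their level is a description. T cell markers, whose Cd3 genes are at 0 by the rule, had medians of 5.14 and 6.13. Their part in the ratios above was not tested further than by the values without barcodes that held as many markers of another class and those with the library profile subtracted.

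Set against CD8 T cells, the other killer lymphocytes of the tumours, NK-like members stood higher in NK receptors and lower in T cell genes in both libraries. CD8 T cells were gated on 2 or more UMIs of Cd3d, Cd3e and Cd3g and 2 or more of Cd8a and Cd8b1 with no Cd4, Csf1r or Cd79a UMI (1023 and 969 barcodes). Genes of the gates differ by choice. Of 11348 genes compared, 962 (8.48%) were at least 1.5-fold higher in NK-like members in both tumours and 1255 (11.1%) lower in both, and over all members 2948 (23.5%) and 2052 (16.4%) of 12519. The highest ratios were those of the rule genes Klra8, Klra4, Ncr1, Klrb1c and Eomes, which differ by choice, and of Klra9, Klrb1f, Klra7, Klra3 and Klrb1b. Klra9 stood at a ratio of 37.7 (22.2 to 68.2) in the AF12198-treated and 73.3 (38.7 to 156) in the control tumour. Klra7 stood at 29.3 (20.5 to 43.1) and 36.6 (24.8 to 55.6), and Klrb1b, an inhibitory receptor, at 16.2 (12.5 to 21.2) and 15.5 (11.98 to 20.2). Of 9 Ly49 genes compared, the rule genes Klra8 and Klra4 among them, 7 were higher in both tumours and 0 lower.

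Other genes with known NK roles followed. The adaptors Tyrobp (1278 CPM in NK-like members against 165 CPM in CD8 T cells of the AF12198-treated tumour, and 563 against 117 CPM in the control tumour) and Fcer1g (6.67 and 4.39 times) stood higher, as did Itga2 (CD49b, 7.11 and 7.44 times), Cxcr4 (5.88 and 4.92), Ccr2 (6.90 and 7.77), Irf8 (3.21 and 3.81) and the mast cell protease Cma1 (36.01 and 10.9), which mouse NK cells are known to express. Vegfa, the vessel growth factor, stood at 7.54 and 3.02 times.

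Gzma and Prf1, which were used to pick the NK-like members, stood higher in them than in CD8 T cells in both tumours. Gzma stood at 2093 CPM in NK-like members and 757 CPM in CD8 T cells there, 2.77 (2.62 to 2.92), and at 2629.5 and 173 CPM in the control tumour, 15.2 (13.98 to 16.5). Prf1 stood at 2.40 and 5.20 times. Gzmb stood at 0.547 (0.483 to 0.619) in the AF12198-treated and 1.99 (1.74 to 2.27) in the control tumour, below the CD8 level in the treated library and above it in the control. The CD8 T cell levels of Gzma and Gzmb stood higher in the AF12198-treated tumour by 4.37 and 2.76 times, as given above. Ifng was lower in NK-like members than in CD8 T cells in both tumours, at 0.259 and 0.511 times.

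Lower in NK-like members, apart from the gate genes Cd3g, Cd3d, Cd3e, Cd8b1 and Cd8a, were the checkpoint receptor Pdcd1 (6.10 against 414 CPM in CD8 T cells of the AF12198-treated tumour, and 9.97 against 513 CPM in the control tumour, 67.99-fold and 51.5-fold lower), Gm156, the chemokine Ccl1, the T cell factor Themis and Cd6. Of 14 checkpoint genes 1 was higher in both tumours and 9 were lower, among them Lag3 (16.1-fold and 6.61-fold lower) and Ctla4 (13.5-fold and 6.64-fold lower). The residency receptor Cxcr6 was 24.2-fold and 11.2-fold lower. Of 27 cell cycle genes 24 were lower in both tumours and 0 higher, with Mki67 3.75-fold and 3.58-fold lower. The depth of CD8 T cells was greater, with medians before thinning of 4047 and 3359 UMIs. CPM is scaled to depth, and whether depth contributed in another way was not tested.

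**Figure D5:**
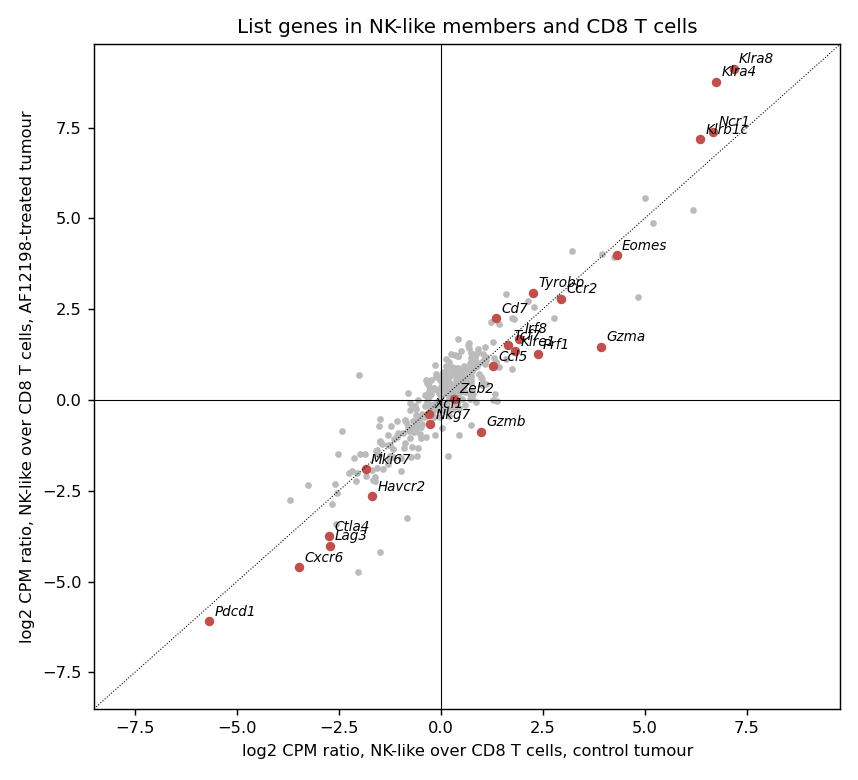
Log2 ratio of NK-like members over CD8 T cells in the AF12198-treated tumour (y) and in the control tumour (x) for list genes with 100 or more UMIs; genes at 0 are set at a floor of 3 counts. Ly49 and other NK receptors lie at the upper right, checkpoint and cell cycle genes at the lower left, and Gzma lies below the diagonal with ratios of 2.77 in the AF12198-treated and 15.2 in the control tumour.

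Among the NK-like members themselves, the 12 most variable genes were mostly genes of other cell types. By the variance of counts over the Poisson expectation at each cell's depth, whose median over 5058 genes was 1.19 in the AF12198-treated and 1.18 in the control tumour, the first genes were the rRNA-like Gm42418, the haemoglobins Hbb-bs, Hba-a1 and Hba-a2, the collagen-associated Col3a1, Col1a1, Col1a2 and Sparc, the neutrophil genes S100a9, S100a8 and Cxcl2, and Malat1. From 86.6% to 96.9% of the haemoglobin, collagen and Sparc UMIs in the AF12198-treated tumour lay in 5 barcodes. Of the NK genes Gzma stood at 17.2 and 27.1, with up to 60 and 196 UMIs in a cell. Ccl4 stood at 38.9 and 12.1, Ccl3 at 31.9 and 10.1, Ccl5 at 25.7 and 5.42, Klra4 at 4.86 and 5.06 and Klra8 at 4.78 and 3.54.

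Some granule and chemokine genes were seen in a larger share of cells with a partner gene than of cells without it. After thinning, Gzmb was seen in 29.9% of the AF12198-treated and 29.0% of the control cells with Gzma, and in 3.33% and 8.16% of those without it. Gzma was seen in 82.6% and 81.5% of the cells with Prf1 and in 57.1% and 57.5% of those without. Gzma was also seen in 84.6% and 77.8% of the cells with Itgam, against 58.4% and 64.3% of those without. Ccl4 was seen in 57.6% of the cells with Ccl3 and 13.4% of those without in the AF12198-treated tumour, and in 52.8% and 36.7% in the control tumour. Xcl1, higher in the AF12198-treated tumour, was seen there in 22.4% of the cells with Gzma and 36.7% of those without, and in the control tumour in 12.5% and 15.3%. Cells within a library are not replicates, so these shares are descriptions of these libraries.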

How the data were processed

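Single-cell RNA was measured in 1 library of each of 4 tissues. The deposited files hold UMI counts per gene and barcode, which the authors made with Cell Ranger 6.0.0 on mm10, per the submitters' processing notes. Barcodes had 500 or more UMIs, 250 or more genes and at most 20% mitochondrial UMIs. The members and gene lists were chosen with earlier results of these data known, and the NK-like range after the data had been seen. Counts were summed per library and class and given as CPM, with no count model and no test, since each group has 1 library. Genes with 30 or more UMIs were compared at 1.5-fold. Named genes were all list members, the 12 highest and 12 lowest ratios among genes of 100 or more UMIs whose interval excludes 1, the 10 each way for NK over CD8 T cells, the 12 most variable genes, and genes of other cell types beside a result. Doublets were kept. Scrublet (Scanpy 1.11.5) left out 993, 2163, 0 and 1 barcodes of the AF12198-treated tumour, control tumour, ligated and normal pancreas as an alternative; in the AF12198-treated tumour its threshold called 1 barcode, so the highest 5% of scores were used. Cells were thinned to 1000 UMIs for shares, with a fixed seed. Intervals came from SciPy 1.17.1 and the sums from NumPy 2.4.6 and pandas 2.3.3 in Python 3.11.15. Transcript lengths were those of GENCODE on GRCm38, and promoters those of RefSeq, aligned with Biopython 1.88. The code for ratios and intervals was run on simulated Poisson counts with known changes. Such counts cannot show whether the intervals hold for these data. Among NK-like members the variance of Gzma was 17.2 and 27.1 times the Poisson expectation, beside medians of 1.19 and 1.18 over 5058 genes. Alternatives were other cell and rule thresholds, denominators, UMI minimums, scalings (TMM, median, length class), subtraction of the library profile and removal of mixed barcodes.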

Additional observations from a re-analysis of the deposited data

Results flagged for a closer look

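Ly6c2, a surface gene of mature lymphocytes and of monocytes, differed in direction between NK-like members and CD8 T cells. It stood at 56.9 CPM in the AF12198-treated and 122 CPM in the control NK-like members, a ratio of 0.466, while the ratio in CD8 T cells was 1.52. With 1 library per group the difference was not tested. In the NK-like members 5 barcodes held 48.2% of its UMIs in the AF12198-treated and 34.7% in the control tumour, and after thinning it was seen in 3.74% and 8.72% of them, below the 6.32% and 10.8% of B cells.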

How the results depend on the processing

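No paired analysis was possible because each group was 1 library, and for the same reason no replicate could be left out. With 2 members in the ligated pancreas, list medians of the control tumour over it were not made. Shares of members in the AF12198-treated and control tumours were 1.60% and 1.53% with 3 or more rule UMIs and 2.36% and 2.53% with 1 exclusion UMI allowed. With a filter of 1000 UMIs, 500 genes and 10% mitochondrial UMIs the AF12198-treated share was 2.40%. Over barcodes with a Ptprc UMI the shares were 2.48%, 2.52% and 1.01% in the AF12198-treated tumour, control tumour and ligated pancreas, over gated lymphocytes 13.3%, 15.4% and 13.3% (tumour ratio 0.865), and for NK-like members 1.66% and 1.56%. A common floor of 760 UMIs kept the shares within their main intervals, and so did leaving out Scrublet calls, which also kept the counts of genes within 1.5 times.

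Of 11081 genes compared over all members, 911 stood higher and 3746 lower in the AF12198-treated tumour. A minimum of 100 UMIs left 540 higher, and no minimum gave 3241 higher and 6694 lower. Relative to the median of all genes the counts were 1970 and 1703, with TMM factors 1716 and 1990, and for NK-like members 2210 were lower. In NK-like members (619 higher and 2210 lower) a minimum of 100 UMIs gave 304 and 802, no minimum 2922 and 6227, the median 1212 and 1099, TMM 1353 and 965, genes of like length 1092 and 1066, and the subtracted library profile 2725 and 996. Without mitochondrial, ribosomal protein, haemoglobin and rRNA-like genes 1465 were lower. Genes higher in members than in CD8 T cells in both tumours, 2948 in all, were 5000 with the library profile subtracted, 962 for NK-like members (1255 lower) and 896 for both together.

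Unthinned shares of NK-like members with a UMI were, in the AF12198-treated and control tumours, 71.2% and 75.7% for Gzma, 41.5% and 58.3% for Prf1, 51.5% and 43.5% for Klra8, 44.8% and 39.3% for Klra4, 87.9% and 57.96% for Ccl5 and 44.8% and 18.6% for Xcl1. Of 2526 gene ratios of NK-like members under alternatives, 1916 stayed within the main interval, 602 moved and 8 turned direction. A turn was counted only where the main ratio passed 1.5-fold. Smaller ratios that changed direction are counted among those that stayed or moved. Gzmc turned to 0.925 as a mean over cells and to 0.279 without barcodes that held as many markers of another class. With the library profile subtracted Il1r2 turned to 3.14, Itga1 to 1.46, Nfat5 to 1.06, Junb to 1.09, Ier5 to 1.01 and Dusp1 to 1.23. Il1r2 is among the neutrophil markers that set how much was subtracted, so its turn is no separate check. The ratios of Egr1, Zfp36 and Pgk1 and the medians of the interferon and glycolysis lists could not be given under that subtraction. It also turned the list medians of granule genes (0.12), calcium and NFAT genes (0.08), MHC class I genes (0.04), immediate-early genes (1.56) and NF-kB genes (0.63). The causes were not tested.  Depth limited the scarce receptors, such as Il1r1 and Pdcd1, and the pancreas libraries.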

Other observations

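Markers of the other innate lymphocytes were measured in NK-like members as well. The 9 markers of type 2 innate lymphoid cells summed to 321 CPM in the AF12198-treated tumour and 250.5 CPM in the control tumour, beside 225 and 198 CPM over all kept barcodes. The 8 of type 3 cells summed to 71.1 and 52.3 CPM, beside 47.7 and 59.9 CPM, and the 7 of gamma-delta T cells to 48.8 and 64.8 CPM, beside 22.4 and 14.6 CPM. The type 2 list includes Areg and the type 3 list Kit, which are described above. The 15 NK markers summed to 6933 and 8540 CPM in the same cells. All 15 were used to choose these cells, by the rule or by the NK-like bound. Their sum is therefore a description and no measure of identity beside the other lists.

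NK genes other than Klra4 were also found in keratin-rich barcodes of the tumours, at lower counts. Klrd1 had 85 UMIs in those of the AF12198-treated tumour and 109 in those of the control tumour, Gzma 134 and 117, Klra7 7 and 10, and Ncr1 0 and 5. In the ligated and normal pancreas these barcodes held 0 and 1 Klrd1 UMIs.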
